A study of Mus musculus with 4 samples.

Results

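Of 11651 strain-enriched H3K27ac regions in mouse embryonic stem (ES) cells, 3382 had their centre in an intron and outside annotated repeats. They were the rows of the B6 and NOD lists whose detailed annotation names an intron, and they numbered 1869 of 5525 regions in the B6 list and 1513 of 6126 in the NOD list. ES cells had been derived from embryos of the inbred strains C57BL/6 (B6) and NOD, which is prone to autoimmune diabetes, and both were grown in 2i, a pair of inhibitors of MEK and GSK3 that holds ES cells in a naive state. Chromatin immunoprecipitation and sequencing (ChIP-Seq) of H3K27ac and of H3K4me3 gave 1 library per strain and mark, 4 in all, so no result has a replicate. Each list holds regions with more signal in its own strain than in the other, so regions marked to a like degree in both strains are mostly not in it. The labels do not say how many ES lines or embryos stand behind a library, and strain, line and library cannot be told apart.

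H3K27ac, acetylation of histone H3 at lysine 27, marks active enhancers and promoters, and H3K4me3, trimethylation of lysine 4, marks active promoters and CpG islands. Many enhancers lie in introns, where they can act on the promoter of the gene that hosts them or on that of another gene. First introns are often long and begin next to the promoter, so a region there can be the downstream flank of a promoter, an internal promoter or an enhancer. Super enhancers are regions at the steep upper end of the ranked signal curve, and in ES cells many lie at genes of cell identity.

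The label of these regions was checked against the RefSeq annotation of GRCm38, the same build as mm10. The region centre lay in an intron of the named transcript for 1833 of the B6 regions (98.1%) and 1492 of the NOD regions (98.6%), and the intron number was the same for 1813 and 1480. The centre base was soft-masked as repeat in the reference for 11.1% of B6 and 11.9% of NOD regions, against 50.9% and 57.0% of the regions that the files annotate as repeats. Host genes could be named for 1845 B6 and 1498 NOD regions. The remaining 24 and 15 carry transcripts, many of them multi-copy small RNAs, that RefSeq does not place there.

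Short regions of high score are shown for their sequence and not as typical members. Below are the highest-scoring regions of at most 300 bp with a placed host gene in first introns (Eps8 and Tacc2 in the B6 list, Gss and Zscan10 in the NOD list) and in later introns (Ccdc141 and Ptprg), then the highest-scoring such region of each list in Jarid2, which encodes a subunit of Polycomb repressive complex 2 and is on the pluripotency list. Letters are of the mm10 plus strand, which is the B6 genome, for both strains. A higher-scoring short region in later introns of each list was left out because its transcript has no placed host gene. Capitals mark matches, on either strand, to any of 10 short motifs of transcription factors that are described with their shares further on.

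Eps8 (B6 list, chr6:137542777-137543039): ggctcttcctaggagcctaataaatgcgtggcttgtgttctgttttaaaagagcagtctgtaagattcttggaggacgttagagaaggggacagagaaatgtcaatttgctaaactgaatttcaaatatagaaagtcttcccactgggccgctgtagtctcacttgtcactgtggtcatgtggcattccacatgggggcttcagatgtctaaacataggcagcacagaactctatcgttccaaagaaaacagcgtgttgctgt
Tacc2 (B6 list, chr7:130600911-130601173): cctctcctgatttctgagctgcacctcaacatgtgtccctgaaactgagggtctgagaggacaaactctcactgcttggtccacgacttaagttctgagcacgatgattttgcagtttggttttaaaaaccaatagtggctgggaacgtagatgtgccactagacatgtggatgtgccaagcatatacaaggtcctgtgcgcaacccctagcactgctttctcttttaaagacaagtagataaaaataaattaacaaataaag
Ccdc141 (B6 list, chr2:77146308-77146570): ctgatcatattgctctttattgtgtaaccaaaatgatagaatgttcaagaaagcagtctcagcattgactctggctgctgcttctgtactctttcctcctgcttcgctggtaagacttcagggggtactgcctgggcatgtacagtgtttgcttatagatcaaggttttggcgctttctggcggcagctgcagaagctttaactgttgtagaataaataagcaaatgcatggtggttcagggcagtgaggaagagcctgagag
Gss (NOD list, chr2:155589758-155589991): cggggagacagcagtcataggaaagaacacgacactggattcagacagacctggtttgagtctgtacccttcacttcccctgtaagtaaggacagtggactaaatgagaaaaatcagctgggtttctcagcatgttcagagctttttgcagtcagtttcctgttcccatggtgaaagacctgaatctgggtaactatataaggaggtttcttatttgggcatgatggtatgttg
Zscan10 (NOD list, chr17:23601176-23601409): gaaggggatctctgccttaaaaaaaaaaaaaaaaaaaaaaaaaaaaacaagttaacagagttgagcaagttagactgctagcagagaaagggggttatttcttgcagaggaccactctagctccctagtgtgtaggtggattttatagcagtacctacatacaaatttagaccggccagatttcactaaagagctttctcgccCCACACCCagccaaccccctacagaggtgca
Ptprg (NOD list, chr14:11965070-11965367): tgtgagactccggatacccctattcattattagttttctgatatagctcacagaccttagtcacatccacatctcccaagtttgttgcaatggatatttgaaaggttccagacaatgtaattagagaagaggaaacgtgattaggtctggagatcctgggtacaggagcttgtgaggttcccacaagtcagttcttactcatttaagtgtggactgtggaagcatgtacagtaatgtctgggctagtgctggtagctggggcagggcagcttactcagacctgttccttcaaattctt
Jarid2 (B6 list, chr13:44768923-44769185): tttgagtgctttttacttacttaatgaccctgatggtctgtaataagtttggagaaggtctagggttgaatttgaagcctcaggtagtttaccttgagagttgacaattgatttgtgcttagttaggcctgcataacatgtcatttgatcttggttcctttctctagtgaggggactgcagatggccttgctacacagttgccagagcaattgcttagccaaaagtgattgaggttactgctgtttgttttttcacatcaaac
Jarid2 (NOD list, chr13:44863965-44864257): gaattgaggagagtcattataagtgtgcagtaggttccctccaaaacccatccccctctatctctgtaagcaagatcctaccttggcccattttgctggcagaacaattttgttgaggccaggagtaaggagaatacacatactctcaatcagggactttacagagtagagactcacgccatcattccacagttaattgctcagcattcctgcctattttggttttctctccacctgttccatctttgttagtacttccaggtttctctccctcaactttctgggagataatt

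Eps8, an adaptor in growth factor receptor signalling, held a region of score 36.6 in intron 1 of 20, 106 kb downstream of the transcription start site (TSS) of that transcript, with 44.5% G and C and 5 CpG dinucleotides. The region in Zscan10, a zinc finger factor of pluripotent cells, lay 0.466 kb from the TSS in intron 1 of 3, and had a score of 51.2. It holds the KLF motif CCACACCC once and a run of A bases. In Gss, which encodes glutathione synthetase, a region of score 66.5 lay 2.94 kb from the TSS. The Jarid2 region of the B6 list, of score 12.2 in intron 2 of 18, holds none of the motifs and no CpG, and that of the NOD list, of score 12.8 in intron 4, none of the motifs and 1 CpG. GC content of the 8 regions shown ran from 40.7% in the B6 region of Jarid2 to 45.6% in Ccdc141.

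Intronic regions outside repeats made up 33.8% of the B6 list (95% interval 32.6 to 35.1) and 24.7% of the NOD list (23.6 to 25.8). The difference, NOD minus B6, was -9.13 points (-10.8 to -7.48). All intervals here are Wilson intervals for a share, Newcombe intervals for a difference of shares and exact conditional binomial intervals for a fold of tags, and they cover counting error only. In the NOD list more of the regions lay in repeats outside introns (24.6% against 16.98% in B6) and at promoters or CpG islands (11.5% against 6.90%). Repeats inside introns took 13.5% of the B6 list and 13.8% of the NOD list, a difference of 0.277 points (-0.973 to 1.52). Among the regions outside repeats that lay in introns or between genes, introns held 60.3% (58.6 to 62.0) in B6 and 57.1% (55.2 to 58.9) in NOD. Both shares were above the 42.6% that introns take of the unmasked intron and intergenic length. Per Mb of unmasked intron there were 2.71 B6 regions and 2.19 NOD regions. The stated range of read numbers is the same for the H3K27ac libraries of B6 and NOD, but their tag totals are unknown. The H3K4me3 libraries share that range, with totals of 14791364 tags in B6 and 22750449 in NOD. The part of H3K27ac depth in these shares and in the regions per Mb was not tested.

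**Figure D1:**
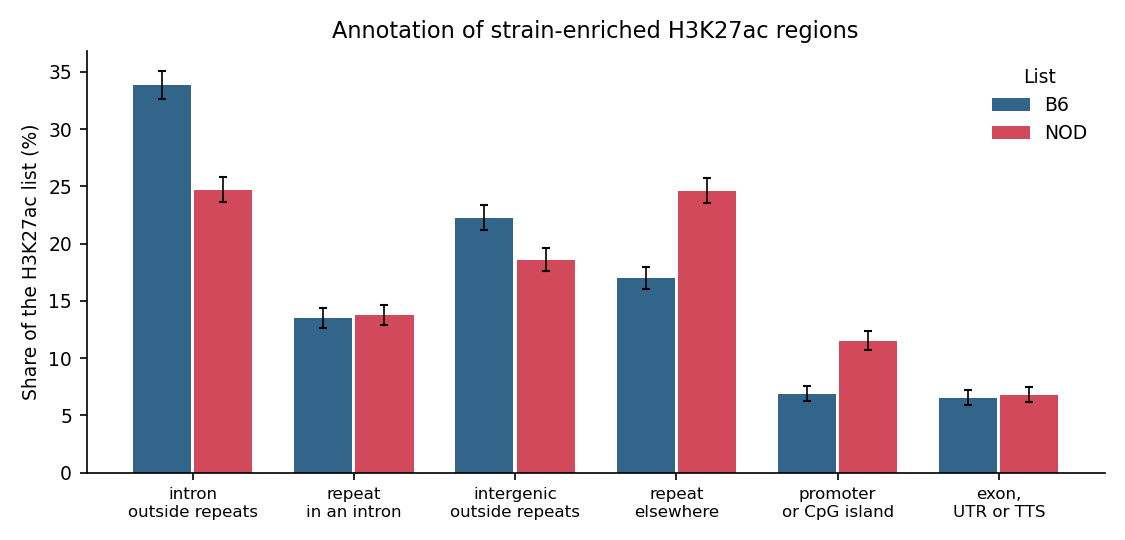
Share of each strain-enriched H3K27ac list (y axis, %) by annotation of the region centre (x axis), with B6 in blue and NOD in red and bars of 95% Wilson intervals. Introns outside repeats were 33.8% of the B6 list and 24.7% of the NOD list, while repeats elsewhere were 16.98% and 24.6%.

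First introns held 638 of the B6 intronic regions, 34.1% (32.0 to 36.3), and 610 of the NOD ones, 40.3% (37.9 to 42.8). The NOD share was 6.18 points higher (2.91 to 9.45). Counting an intron as first when it is first in any curated transcript gave 36.8% in B6 and 43.2% in NOD, and such introns make up 30.4% of unmasked intron length. Intron 2 held 15.4% of B6 and 15.7% of NOD regions, and introns 6 and later held 27.8% and 24.9%. The median first intron with a region was 29.4 kb long in B6 and 24.1 kb in NOD, and the median later intron 9.74 kb and 8.60 kb.

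NOD regions also lay nearer to the TSS of the host transcript. The median distance was 22.9 kb in NOD and 30.8 kb in B6, over the 1494 and 1835 regions whose transcript is placed. Within 1 kb of the TSS lay 9.17% of NOD regions (7.81 to 10.7) and 5.67% of B6 regions (4.70 to 6.82), a difference of 3.502 points (1.72 to 5.35). At 100 kb or more lay 14.6% of NOD and 18.3% of B6 regions, a difference of -3.66 points (-6.16 to -1.13). Inside first introns the median region centre stood 39.4% of the way through the intron in NOD and 48.1% in B6, while inside later introns it stood at 48.6% and 48.3%. Without the regions within 5 kb of the host TSS, first introns held 28.7% in NOD and 27.8% in B6, and the difference between the lists was 0.822 points (-2.55 to 4.23). The higher first-intron share of the NOD list was thus not detectable away from the TSS.

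**Figure D2:**
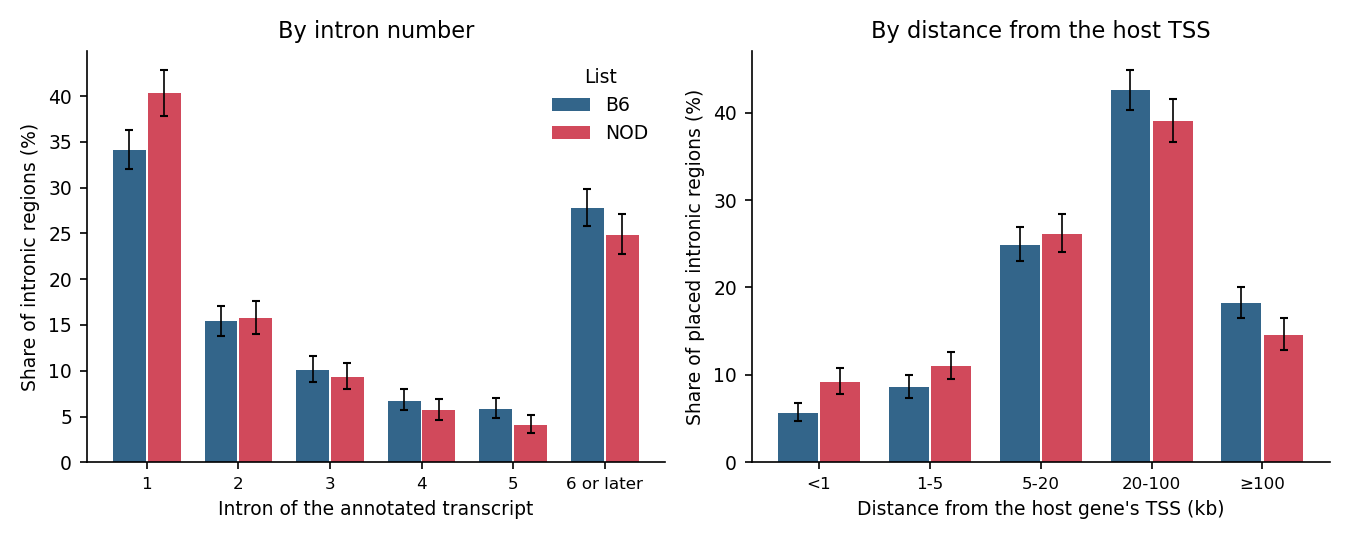
Share of intronic H3K27ac regions (y axis, %) by the number of the intron in the annotated transcript (left) and by distance from the TSS of that transcript in kb (right), B6 in blue and NOD in red, with 95% Wilson intervals. The lists stand apart in the first intron, 34.1% against 40.3%, and within 1 kb of the TSS, 5.67% against 9.17%.

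Region scores are the authors' own, with no stated unit, and are compared only inside a list. The exception is the ranking of genes with regions of both lists, where the scales may differ. The median score was 12.4 in the B6 list and 11.3 in the NOD list. First and later introns had medians of 12.7 and 12.4 in B6, and 11.9 and 10.9 in NOD. The spread inside each class was far wider than these gaps, with quartiles of 9.17 and 22.1 for B6 first introns and 8.56 and 24.2 for NOD first introns. Width, the difference of end and start, was exactly that of a single peak call, 262 bp in B6 and 233 bp in NOD, for 52.6% and 53.7% of regions. At the other end 170 B6 and 144 NOD regions were at least 5 kb wide. Such a region takes its annotation from its centre alone and can run over exons or promoters. A few regions (4 in B6, 8 in NOD) had scores of 0 or less.

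**Figure D3:**
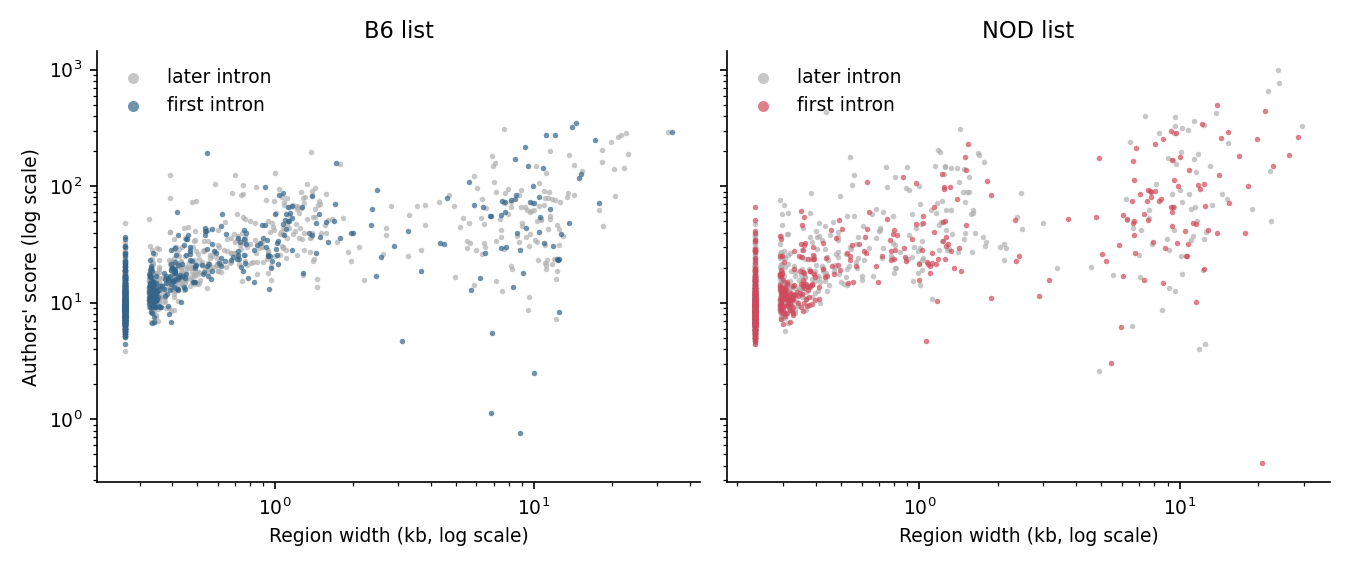
Authors' score (y axis, log scale) against region width in kb (x axis, log scale) for intronic regions with a score above 0, B6 list on the left and NOD list on the right, each point a region, coloured for first introns and grey for later introns. First and later introns overlap over the whole range, and the column of points at the left of each panel is the width of a single peak call, 262 bp in B6 and 233 bp in NOD.

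The 8 highest-scoring B6 regions in first introns had scores of 194 to 348, and the 8 in later introns 202 to 308. The highest, of score 348 and 14510 bp wide, lay in intron 1 of 8 of Efcab12, an EF-hand domain gene, 7.63 kb from the TSS (chr6:115823531-115838041). Next in first introns stood Sh3bp4, which encodes an endocytic adaptor, with 319.5, and Frmd4b, a FERM domain scaffold gene, with 291 over 34328 bp. Tsc22d1, which encodes a transcriptional regulator induced by TGF-beta, had 277, Fabp12, a fatty acid binding protein gene, 276.5, and Pmepa1, a target and inhibitor of TGF-beta signalling, 247. Laptm5, a lysosomal protein gene of blood cells, had 218 and the non-coding 2410017I17Rik 194. In later introns Vwf, the von Willebrand clotting factor gene, led with 308 in intron 7 of 51. It was followed by Rbfox2, a splicing regulator, with 294 and Rara, the retinoic acid receptor alpha, with 285.5 over 22722 bp. Dock5, an activator of the GTPase Rac, had 273, Cemip, a hyaluronan-binding protein gene, 264, and Rerg, a Ras-like gene, 239. Fut9 had 204 and Itpr1, an IP3-gated calcium channel, 202. Fut9 encodes the fucosyltransferase that makes the SSEA-1 antigen of mouse ES cells. Intron numbers are those at the region centre, and some of these regions are wider than that intron. Among them are Efcab12 (intron of 14.072 kb), Vwf (7654 bp, 1.545 kb) and Cemip (21091 bp, 5.024 kb). Of the 16 regions, 5 lay on chromosome 6, which is treated further on.

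The 8 highest-scoring NOD regions in first introns had scores of 261 to 499.5, and the 8 in later introns 366 to 986. Crxos, a homeobox gene, held the highest score of all intronic regions in the list, 986 over 23947 bp (chr7:15881632-15905579). Its centre lay in intron 3 of 4 of a non-coding transcript. Rfx8, of the RFX transcription factor family, held 771 in its last intron, 14 of 14, where the nearest TSS was that of Creg2. Pard3, a cell polarity gene, had 654 in intron 5 of 24, and Sucla2, a subunit of succinyl-CoA ligase in the Krebs cycle, had 421. Tmem267 had 430.5, Sgo2b, a shugoshin that guards centromere cohesion, 397, Vps53, of the GARP tethering complex, 396 and Eva1c 366. In first introns the non-coding Gm14403 led with 499.5, 0.637 kb from its TSS, ahead of Mtus2, a microtubule-associated gene, with 438. Dpp6, an auxiliary subunit of potassium channels, had 299, the kinase gene Hunk 294, and Ido2, which encodes a tryptophan-degrading enzyme, 287 at 0.852 kb from its TSS. Rgma, a BMP co-receptor and guidance molecule, had 267 and Tenm4, a teneurin, 261. A further region of score 340 on chromosome 5 was annotated to a multi-copy small RNA and has no placed host gene. The region in Tmem267 was only 440 bp wide, while the other 15 were between 7347 and 28570 bp. Intron numbers are again those at the region centre, and some regions are wider than that intron. Among them are Crxos (intron of 6.754 kb), Rfx8 (24026 bp, 4.612 kb), Sgo2b (7347 bp, 1.599 kb) and Gm14403 (13912 bp, 3.425 kb). The regions of Crxos and Gm14403 also run over a TSS of their gene.

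Super enhancers were 108 of the B6 intronic regions, 5.78% (4.81 to 6.93), and 85 of the NOD ones, 5.62% (4.57 to 6.89). They are called so here for a slope value of at least 1 in the deposited column, whose exact meaning the files do not give, and a place in the upper 50% of their list by score. The second condition was added after the values were seen. All other regions of the same list held a larger share, 7.49% in B6 and 8.80% in NOD. Intronic regions were -1.72 points (-3.04 to -0.309) from the rest in B6 and -3.18 points (-4.54 to -1.69) in NOD. Against intergenic regions outside repeats the differences were -2.20 points (-4.11 to -0.393) and -4.48 points (-6.64 to -2.42). Inside introns, first minus later was -1.16 points in B6 (-3.23 to 1.16) and 0.750 points in NOD (-1.58 to 3.28), so no difference between intron classes was detectable. Without chromosomes 6 and 8 the interval for B6 intronic regions against the rest reached past 0, at -1.31 points (-2.67 to 0.155). It also held 0 when regions of the lower 50% with such slope values were included, at -1.43 points (-2.79 to 0.0194), so the B6 difference rests on these choices. Intronic super enhancers had a median width of 7669 bp in B6 and 9306 bp in NOD.

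H3K4me3 came from separate libraries and was not used to choose the regions. The B6 list of H3K4me3 holds 7587 regions from 14791364 tags and the NOD list 12077 from 22750449 tags, so a NOD region had more H3K4me3 regions to meet. Of the B6 intronic H3K27ac regions, 71 overlapped a B6-enriched H3K4me3 region by at least 1 bp, 3.799% (3.02 to 4.76), and 39 a NOD-enriched one, 2.09% (1.53 to 2.84). Of the NOD intronic regions, 125 overlapped a NOD-enriched H3K4me3 region, 8.26% (6.98 to 9.76), and 15 a B6-enriched one, 0.991% (0.602 to 1.63). Over all intronic regions of each list the same-strain share was above that over the other strain. Among B6 regions of the width of a single peak call the counts were equal, 16 and 16 of 984, and in NOD they were 27 and 7 of 812. Most intronic regions thus had no strain-enriched H3K4me3 of either strain.

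In first introns 61 of 610 NOD regions overlapped same-strain H3K4me3 (interval 7.86% to 12.6%) and 30 of 638 B6 regions, 4.70% (3.31 to 6.63), and in later introns 7.09% and 3.33%. First minus later was 2.91 points in NOD (0.0789 to 5.95) and 1.37 points in B6 (-0.436 to 3.49). With only H3K4me3 regions of at least 8-fold the NOD difference turned to -0.548 points (-2.52 to 1.60), so it did not hold. Against all other H3K27ac regions of their list, intronic regions were -2.12 points in NOD (-3.70 to -0.403) and -1.29 points in B6 (-2.38 to -0.115). These differences did not hold either among regions under 5 kb, where the intervals reached past 0. Intronic super enhancers carried the mark far more often, 36 of 85 in NOD, 42.4% (32.4 to 53.0), and 19 of 108 in B6, 17.6% (11.6 to 25.8), against 6.23% and 2.95% of the other intronic regions. Width moved with this: among regions of at least 5 kb, 47.2% (34.4 to 60.3) of NOD super enhancers and 16.5% (10.3 to 25.4) of other NOD regions overlapped same-strain H3K4me3, and 20.9% (12.9 to 32.1) and 8.74% (4.67 to 15.8) in B6. Of the wide B6 regions that were not super enhancers, 11 of 103 overlapped H3K4me3 of the other strain and 9 that of their own. Super enhancers over H3K4me3 of the other strain were 2 in each list.

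**Figure D4:**
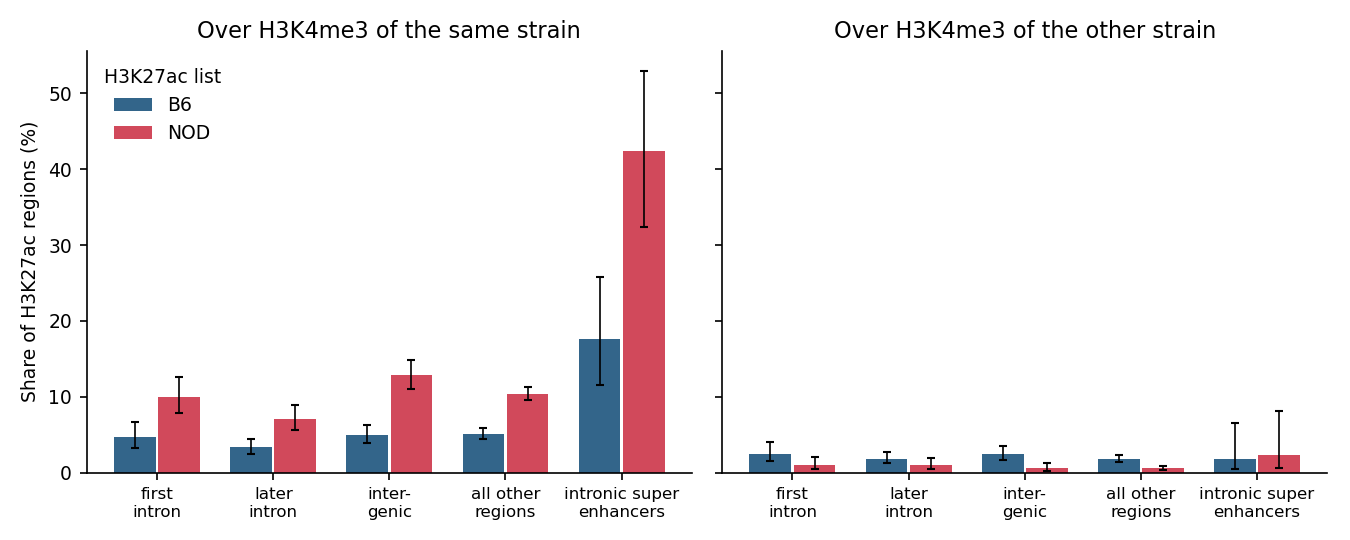
Share of H3K27ac regions (y axis, %) that overlap H3K4me3 of the same strain (left) or of the other strain (right), for first-intron, later-intron, intergenic and all other regions and for intronic super enhancers (x axis), B6 in blue and NOD in red, with 95% Wilson intervals. Intronic super enhancers reach 42.4% in NOD and 17.6% in B6 on the left and stay at 2.35% and 1.85% on the right.

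The H3K4me3 sites with the most tags are given here. Only H3K4me3 regions at least 4-fold over the other strain were listed, so large folds there follow in part from that choice. Tags are counted over the whole H3K4me3 region, which can reach outside the H3K27ac region it overlaps. The H3K4me3 region of 5551 bp that met the Ipp region, in intron 4 of 8 of an actin-binding kelch gene, lay mostly beyond the end of the H3K27ac region. It had 1450 tags in NOD against 13 in B6, 72.5-fold (42.3 to 137) after scaling to library totals. Gm14403 had 1321 NOD and 132 B6 tags at its strongest site, 6.51-fold (5.44 to 7.84), and 3 further NOD-enriched sites that overlap the same H3K27ac region. Rfx8 had 1068 and 126 tags, 5.51-fold (4.58 to 6.68). Zfp951, a zinc finger gene, had 741 and 86, and Acp5, the tartrate-resistant acid phosphatase gene of osteoclasts and macrophages, 585 and 95. The H3K27ac regions at these sites were NOD-enriched by the way they were chosen. Their scores ran from 166 in Acp5 to 771 in Rfx8.

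In the B6 list the highest tag number lay over the last intron of Smpdl3b, a sphingomyelinase-like gene, with 423 B6 and 59 NOD tags, 11.0-fold (8.38 to 14.7), and an H3K27ac score of 104. The gene 5730507C01Rik had 294 and 46 tags, and 3300002I08Rik 274 and 99, 4.26-fold (3.37 to 5.41). Zfp729b, a zinc finger gene, had 207 and 63 tags, 0.376 kb from its TSS, and Sult6b1, a sulfotransferase gene, had 201 and 50 at the stronger of 2 sites. A median same-strain site had 33 B6 tags over the B6 regions and 51 NOD tags over the NOD regions, so these few sites stand far above the typical one. In the NOD list H3K4me3 of both strains met 1 H3K27ac region, in Zfp982, at separate sites. There 22 NOD against 3 B6 tags and 62 B6 against 19 NOD tags were counted. Zinc finger genes such as Zfp982 and Zfp951 lie among near-identical copies, and the placement of 50 bp reads between copies was not tested.

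The nearest TSS, as the files give it, was that of the host gene for 93.3% of B6 regions in first introns (91.0 to 94.96) and 63.0% in later introns (60.3 to 65.7). In NOD the shares were 91.3% (88.8 to 93.3) and 63.3% (60.2 to 66.4). First minus later was 30.2 points in B6 (26.8 to 33.4) and 28.0 points in NOD (24.0 to 31.7). First introns begin next to the host TSS, so a difference in this direction follows from gene structure. The median distance to that TSS was 12.6 kb in first and 45.8 kb in later introns in B6, and 7.09 kb and 39.9 kb in NOD. The same share for intron positions without a region was not computed. Over all intronic regions the host gene was the nearest in 73.4% of B6 and 74.6% of NOD regions, and naming genes by the nearest TSS gives another gene for the remainder. Examples among the highest scores were Pmepa1, where the nearest TSS was that of Zbp1, a cytosolic nucleic acid sensor, 19.8 kb away, Rfx8 with Creg2 at 16.5 kb and Tmem267 with the chemokine gene Ccl28 at 21.8 kb.

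Host genes numbered 1548 in the B6 list and 1324 in the NOD list, and 221 and 144 of them held at least 2 regions. Of 18866 protein-coding genes with an intron, 7.88% held a B6 intronic region and 6.71% a NOD one. Host genes were long, with a median span of 71.4 kb in B6 and 69.0 kb in NOD against 20.2 kb over all these genes. Among the 4667 genes of at least 50 kb, 19.9% held a B6 region and 16.7% a NOD region. The share of genes with a region was thus higher among long genes in both lists.

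Genes with many regions were mostly very long. Pde4d, a cAMP phosphodiesterase gene of 1302 kb, held 6 B6 regions, all in introns 3 and 7, with scores of 185, 53.1, 15.7, 13.0, 12.9 and 8.03, and 1 NOD region of score 7.77. Dst, which encodes the cytoskeletal linker dystonin, held 5 B6 regions with scores of 171, 154, 125, 19.5 and 10.9, of which that of 171 lay in a first intron. Magi1, a scaffold gene of cell junctions, held 5 B6 regions with a highest score of 190 and 3 NOD regions with a highest score of 25.1. Rbfox1, a splicing regulator of 1528 kb, held 5 B6 regions with scores from 8.60 to 42.2 and none of NOD, and Frmd4b held 4 B6 regions. In the NOD list Tenm4 held 5 regions with scores of 261, 23.5, 15.8, 10.5 and 7.32. Mtus2 held 4 with scores of 438, 24.4, 13.3 and 7.66, and Chd9, a chromodomain helicase gene, 4 from 9.69 to 22.7. Pard3 held 3, of 654, 30.1 and 18.1. Msi2, which encodes an RNA-binding protein of stem cells, held 4 regions in each list, up to 44.2 in B6 and 20.7 in NOD.

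Regions of both lists were found in 293 genes, 18.9% (17.1 to 20.96) of the B6 host genes and 22.1% (19.98 to 24.4) of the NOD ones. Of all protein-coding genes with an intron, 1.53% held both. With only regions in the upper 50% of their lists by score the shares were 6.66% and 8.86%. Of all protein-coding genes with an intron, 4.01% then held a B6 region and 2.95% a NOD one, against 7.88% and 6.71% before. The regions of the 2 lists in such a gene were mostly apart, with a median gap of 17.6 kb (quartiles 5.78 and 38.6), and the gap was under 5 kb in 69 genes. Ranked by the lower of the highest scores from either list, Tsc22d1 stood first, with 277 in B6 and 132 in NOD, 68.9 kb apart. Its B6 region lay in intron 1 of a 2-intron transcript and its NOD region in intron 3 of a transcript with 4. Tenm4 had a B6 region of score 92.7 and a NOD region of score 261, and its nearest pair was 29.2 kb apart, both in first introns. Zfp982 had 64.2 and 80.4, but its regions lie outside the RefSeq placement of the named transcript, among copies of related genes.

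Direct overlap between the lists was rare. A region of the other list was met by 23 B6 intronic regions, 1.23% (0.821 to 1.84), and 22 NOD ones, 1.45% (0.962 to 2.19). Most of these pairs joined a short region with a wide one, or shared a few bases at their ends. In Clec16a, a gene of autophagy in a locus tied to type 1 diabetes, neighbouring regions of intron 15 of 22 were listed in opposite directions, with a B6 score of 13.9 and a NOD score of 8.33. They shared 12 bases, which are the capitals in the sequences below, from the mm10 plus strand. This pair was chosen after its values were seen.

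Clec16a (B6 list, chr16:10634425-10634687): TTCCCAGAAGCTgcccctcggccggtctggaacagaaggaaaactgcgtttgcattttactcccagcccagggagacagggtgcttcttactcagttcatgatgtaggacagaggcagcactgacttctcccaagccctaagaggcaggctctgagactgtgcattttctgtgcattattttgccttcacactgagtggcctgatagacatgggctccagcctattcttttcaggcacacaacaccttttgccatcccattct
Clec16a (NOD list, chr16:10634203-10634436): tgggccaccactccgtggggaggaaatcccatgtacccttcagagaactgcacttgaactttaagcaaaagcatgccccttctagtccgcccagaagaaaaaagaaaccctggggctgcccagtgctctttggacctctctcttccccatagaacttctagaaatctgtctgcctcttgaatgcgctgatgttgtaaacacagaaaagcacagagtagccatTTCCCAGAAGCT

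The gene lists were read against those background shares. Of 39 core and naive pluripotency genes with an intron, 3 held a B6 region and 2 a NOD region, 7.69% and 5.13%, close to the 7.88% and 6.71% of all genes. Klf5, a zinc finger factor of naive pluripotency, had a B6 score of 22.6, 0.967 kb from its TSS in intron 1 of 3. Jarid2 had 2 B6 regions of 12.2 and 9.51 and 3 NOD regions of 12.8, 11.8 and 8.23, and Tet2, a 5-methylcytosine oxidase gene, had a B6 region of 9.39. Lin28a, which encodes a blocker of let-7 maturation, had a NOD region of 17.3. None of these regions overlapped strain-enriched H3K4me3.

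Chromatin and DNA methylation enzymes differed most in number between the lists, with 22 of 60 genes in B6 (36.7%, 25.6 to 49.3) and 5 in NOD (8.33%, 3.61 to 18.1). These genes were long, with a median span of 70.2 kb. Among those of at least 50 kb, 20 of 36 held a B6 region, 55.6% against 19.9% of all genes of that length, and 3 held a NOD region, 8.33% against 16.7%. With only the upper 50% of each list by score, a choice made after seeing the data, 7 of the 60 genes held a B6 region (11.7% against 4.01% of all genes) and 1 a NOD region (1.67% against 2.95%). Arid1b, a subunit of the BAF remodelling complex, had 4 B6 regions of 73.3, 29.9, 23.8 and 6.90. Smarca2, an ATPase of the same complex, had 28.7, Hdac7, a histone deacetylase, 28.3, and Kat6b, a histone acetyltransferase, 22.7. In NOD the highest were Kmt2c, a histone H3 lysine 4 methyltransferase, with 27.7, Jarid2 with 12.8, Ehmt2, a histone H3 lysine 9 methyltransferase, with 12.4 and Kat6b with 8.11. Except in Arid1b, the regions named here were at most 1004 bp wide. Of the B6 regions in this list, that of Dnmt3a, a de novo DNA methyltransferase, score 7.35, lay over H3K4me3 enriched in NOD, with 30 NOD and 4 B6 tags.

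Signalling genes of the LIF, FGF, BMP, Nodal and Wnt pathways held B6 regions in 17 of 62 (27.4%, 17.9 to 39.6) and NOD regions in 9 (14.5%, 7.83 to 25.3), with a median span of 57.0 kb. Among those of at least 50 kb, 46.9% held a B6 region and 18.8% a NOD region, against 19.9% and 16.7% of all genes of that length. In the upper 50% of each list by score, 7 of the 62 genes held a B6 region (11.3% against 4.01% of all genes). There 2 held a NOD region (3.23% against 2.95%). Sos1, an activator of Ras, had a B6 region of score 135 and 15405 bp in intron 6 of 21. Smad7, an inhibitor of TGF-beta and BMP signalling, had 61.1 and Tcf7l1, a repressor of Wnt targets in ES cells, 24.1. On the NOD side Grb2, the adaptor between receptors and Sos1, had 74.3 in intron 1, 2.32 kb from a TSS. Acvr2a, an activin receptor, had 51.2, Bmpr1a, a BMP receptor, 11.6 and Smad7 10.5. Grb2 also held a B6 region, of 8.83. Of all B6 regions in this list only 1, in Tcf7l1, had same-strain H3K4me3, with 30 B6 against 2 NOD tags. That region was 1 of 3 in Tcf7l1 and had a score of 12.6, while the region of 24.1 had no such overlap.

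Lineage-specifying transcription factors held regions in 6 of 49 genes in each list, 12.2% (5.73 to 24.2) against 7.88% and 6.71% of all genes. All of these spanned at least 50 kb. Of the 19 factors of that length 31.6%, or 6 genes, held a region in each list, against 19.9% (B6) and 16.7% (NOD) of all genes of that length. The interval for the 49 genes holds the shares of all genes, so no excess was detectable in either list. Foxp1, a forkhead factor, had a B6 score of 53.7, Prdm16, a factor of brown fat and blood stem cells, 47.6, Nfib 43.1 and Ebf1, a B cell factor, 26.3. In NOD Meis2, a homeobox cofactor of Hox proteins, had 162, Nfib 34.8, Prdm16 26.2 and Hnf4a, a liver factor, 15.3. At Ebf1 the B6 region of 26.3 lay over B6-enriched H3K4me3 with 23 against 4 tags, and another B6 region, of 10.5, lay over NOD-enriched H3K4me3 with 21 NOD and 3 B6 tags. Of the 72 immune and type 1 diabetes genes, 5 held a B6 region and 4 a NOD region, 6.94% and 5.56%, again close to all genes. In the upper 50% of each list by score, 5 held a B6 region (6.94% against 4.01% of all genes). There 1 held a NOD region (1.39% against 2.95%). Igfbp2, an insulin-like growth factor binding protein gene, had a B6 score of 22.1, Pik3cd, a PI3 kinase gene of lymphocytes, 18.5, Stat4, which acts in interleukin 12 signalling, 17.8 and Aim2, a sensor of cytosolic DNA, 14.5. NOD regions lay in Pcmtd1 (17.1 and 10.7), Stat4 (9.46), Clec16a (8.33) and Ifnar1, a chain of the type I interferon receptor (6.87). Some of the genes in this list were named by the study for marks in these libraries, so their presence is not independent of the data. Among them is Igfbp2, where the study reports a NOD super enhancer with more H3K27ac in NOD. The B6 region at Igfbp2 was 262 bp wide.

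By chromosome, 44.7% of intronic regions (43.1 to 46.4) were of the NOD list, against 55.8% of all other H3K27ac regions. Chromosome 6 stood lowest, with 158 B6 and 65 NOD intronic regions, a NOD share of 29.1% (23.6 to 35.4). Its share among other regions was also the lowest of all, 37.5%. Chromosome 8 was high, with 73 B6 and 110 NOD regions, 60.1% (52.9 to 66.9), and the X chromosome had 22 and 35. On the 17 other autosomes the NOD share of intronic regions ran from 38.9% to 55.6%, and that of other regions from 46.9% to 62.0%. On chromosomes 1 to 19 and X the NOD share of intronic regions was below that of the other regions in each case. The order of the remaining autosomes differed between them, with chromosome 3 highest for intronic regions (55.6%) and chromosome 18 for other regions (62.0%). What sets chromosomes 6 and 8 apart was not tested. Without these 2 chromosomes the difference in intronic share between lists was -9.59 points and that in first-intron share 5.26 points (1.77 to 8.75).

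**Figure D5:**
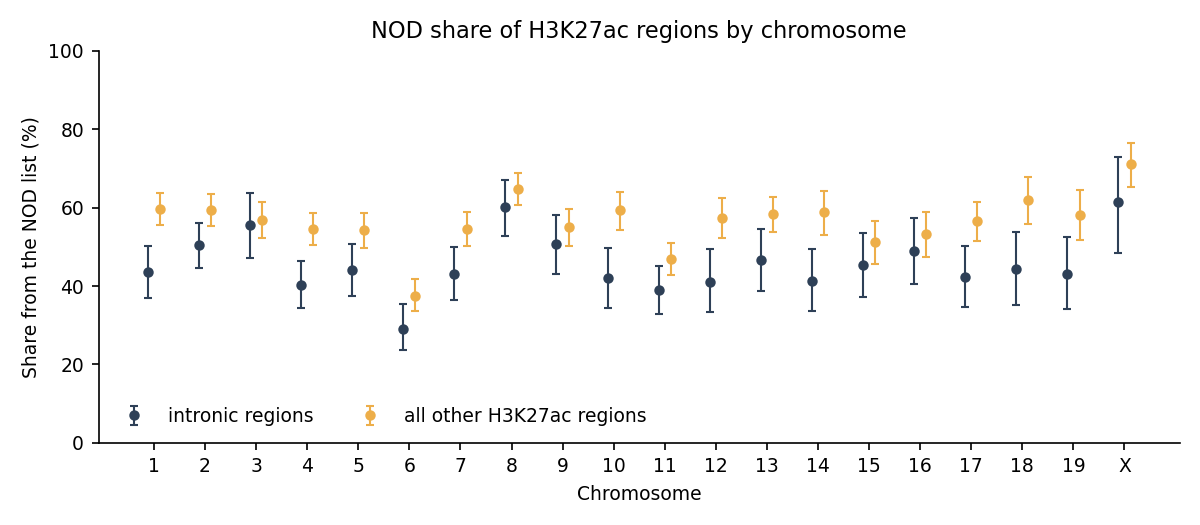
NOD share of intronic H3K27ac regions (dark) and of all other H3K27ac regions (yellow) on each chromosome (y axis, % of regions of both lists; x axis, chromosome, Y left out), with 95% Wilson intervals. Chromosome 6 is lowest in both, at 29.1% and 37.5%, and chromosome 8 is at 60.1% and 64.8%.

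Sequence content was compared in the central 250 bp of each region, in the reference, on both strands. Median GC content was 47.6% in B6 intronic regions and 45.6% in NOD ones. First introns stood slightly above later ones, 48.0% against 47.6% in B6 and 46.4% against 45.2% in NOD. The observed over expected CpG ratio had medians of 0.195 and 0.199. Regions annotated as CpG islands are not among the members, so a low ratio follows in part from how they were chosen.

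The 10 motifs were ATGCAAAT (octamer, bound by POU factors such as Oct4), CATTGTT (SOX), TCAAGGTCA (ESRRB), CCACACCC (KLF), TTCCNGGAA (STAT), CACGTG (E-box), CCGGAAG (ETS), TGANTCA (AP-1), TGACGTCA (CRE) and GCGCATGCG (NRF1) and overlapping matches were counted for each motif. The AP-1 letters were the most frequent, in 8.94% of B6 intronic regions against 8.81% of other B6 regions and in 8.20% against 8.06% in NOD. SOX letters were in 5.02% of NOD intronic regions and 3.86% of other NOD regions, a difference of 1.16 points (0.00827 to 2.49), and in 4.71% and 4.29% in B6. STAT letters were in 1.44% and 0.848% in B6, a difference of 0.597 points (0.0248 to 1.29), and in 0.727% and 0.802% in NOD. Both intervals that left out 0 reached past it in a 150 bp window. The octamer was in 1.82% of B6 and 1.85% of NOD intronic regions. For the 10 motifs and 2 lists, 18 of 20 differences between intronic and other regions had intervals that held 0.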

How the data were processed

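B6 and NOD ES cells were profiled by ChIP-Seq with 1 library per strain and mark, so groups were never averaged. Per the study's methods, reads of both strains were mapped to mm10, which is the B6 genome, with bowtie2, and analysed with HOMER. The submitters' notes name mm9, STAR 2.2.0c and CASAVA 1.8.2 instead. Per the file headers the lists are in mm10, and the positions fit RefSeq GRCm38.p6, which was used for genes and sequence.

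For H3K27ac, the authors deposited a score per region and a slope value, with no count, so tag totals are unknown. Only a range of read numbers is stated, the same for every library. For H3K4me3, the deposited tag count per region, the normalised signal per 10000000 tags, the fold (ratio) over the other strain and the p-value were made by the authors with peaks of 500 bp and thresholds of 4 in fold and 1.00e-04 in p-value over the other strain. Only tag counts and folds were used here. NOD tags, which the authors scaled to the B6 library, were returned to whole tags with the library totals of 14791364 and 22750449.

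Members and gene lists were chosen with earlier results of these data known. Regions were compared in Python 3.11.15 with pandas 2.3.3, numpy 2.4.6, scipy 1.17.1 and pysam 0.24.0. Shares, differences and folds have 95% intervals and no p-value. Regions with a slope of at least 1 in the lower 50% of a list by score, 16 in B6 and 27 in NOD, were not counted as super enhancers. In the 5 top rows of each list, where the column holds the region size, they were counted. Overlap, interval and fold functions were tested on simulated data. Genes were named by rule: the 8 highest-scoring regions per list and intron class, the 5 genes with most regions, up to 4 genes per gene list and strain, the 5 regions over the H3K4me3 site with most tags, and 3 genes with regions of both lists. Dnmt3a and the Clec16a pair were named after their values were seen. Of the sequences this rule gave, 2 in transcripts without a placed host were left out, as were 2 of the Jarid2 ones. A gene that the rule names is not reported here.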

Additional observations from a re-analysis of the deposited data

How the results depend on the processing

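Annotation, score, chromosome, repeat, transcript, overlap and width choices were changed one at a time. Of 53 alternative values for the differences and gene shares, 38 kept their direction. Their intervals stayed on the same side of 0 or, where the main interval held 0, held 0 again. The latter were first against later introns, for H3K4me3 in B6 and super enhancers in both lists, where no difference was detectable. The lower intronic share of NOD held in each alternative, from -11.8 to -6.84 points. The higher first-intron share of NOD held in 7 of 8, and fell to 0.822 points without 5 kb around the host TSS. For same-strain H3K4me3, intronic regions against the rest had intervals holding 0 in B6 with an overlap of 50% of the shorter region (-1.003), H3K4me3 of 8-fold or more (-0.815), the upper 50% by score (-1.91) and regions under 5 kb (-0.902), and in NOD with the upper 50% by score (-1.13) and regions under 5 kb (-1.49). First against later introns in NOD gave 2.44, 2.60 and 1.18 points with the 50% overlap, the upper 50% and regions under 5 kb, and -0.548 with 8-fold H3K4me3. For super enhancers in B6, intronic regions against the rest gave -1.31 points without chromosomes 6 and 8 and -1.43 with the low end of the slope column included. Host genes with regions of both lists fell to 6.66% (B6) and 8.86% (NOD) in the upper 50% by score. Genes with any region also fell there, to 4.01% (B6) and 2.95% (NOD) of all protein-coding genes with an intron. The cause of these changes was not tested. The 5 kb settings and those on the low end of the slope column, on intergenic regions and on gene lists in the upper 50% by score were chosen after seeing the data. No paired analysis was possible because each group has 1 library and no result comes from a test across samples. Without H3K27ac counts, no depth limit could be set for the regions of either list.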
